A study of Homo sapiens with 9 samples.

Results

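The chromosome 17 interior comprises the γH2AX-marked regions of chromosome 17 whose midpoint lay between 1 and 20 Mb on the short arm (17p) or between the middle of the 27 to 28 Mb window and 80 Mb on the long arm (17q), in hg19 coordinates. These bounds leave out both chromosome ends and the centromere with its flanks. They held 11420 of the 234983 regions called in the 8 ChIP libraries of the series. The rule uses position alone and no measured value, and the bounds were proposed with earlier results of these data known. The interior was divided into 72 windows of 1 Mb, 19 on 17p and 53 on 17q, and a region was counted whole in the window of its midpoint; the first 17q window holds only the last 0.5 Mb before 28 Mb.

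The libraries are γH2AX chromatin immunoprecipitations from K562, a human leukaemia line that grows in suspension and can be driven along blood lineages. The 4 groups were FANCL knockout (KO) cells given 5 nM PMA for 72 h, KO cells mock treated for 72 h, wild-type (WT) K562 cells given 5 nM PMA for 72 h and WT cells mock treated for 72 h. Each group had 2 libraries, and 1 unprecipitated input library of WT mock cells served all of them. PMA is a phorbol ester that activates protein kinase C and takes K562 cells towards a megakaryocyte-like state. The labels do not say how the FANCL allele was disrupted, whether the knockout is 1 clone, or whether the 2 libraries of a group started from different cultures, so a p-value here reflects library-to-library spread that could be technical. Region lists cannot check the knockout itself or the identity of the cells, and in a cell population more marked cells and more marked DNA per cell cannot be told apart.

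γH2AX is histone H2AX phosphorylated on its tail. The kinases ATM, ATR and DNA-PK place it around DNA breaks and stalled replication forks, from where it can spread along chromatin. FANCL is the ubiquitin ligase subunit of the Fanconi anaemia core complex, which marks FANCD2 and FANCI so that DNA crosslinks and other blocks to replication can be resolved. Chromosome 17 is a gene-rich chromosome in which stretches dense in broadly expressed genes alternate with gene-poor stretches of tissue-restricted genes. It carries several repair genes, among them BRCA1, RAD51C, BRIP1 and the core complex gene FAAP100, and blood genes such as ITGA2B and ITGB3, which encode the platelet fibrinogen receptor.

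The sequences of 4 promoters are shown as examples of how far base composition ranges within the interior. They were chosen after the window values were seen and are not typical of their stretches: ACTG1 (cytoplasmic γ-actin) lies in the 79 to 80 Mb window and STAT5B (a transcription factor of cytokine signalling) in the 40 to 41 Mb window, both with much γH2AX in KO cells, while KIF2B (a kinesin of dividing cells) and KCNJ16 (a potassium channel subunit) lie in windows with no region in any library. No hg19 annotation was used here: genes were assigned to hg19 windows from general knowledge, and the order of 135 of them was checked against RefSeq. Each sequence is the 250 bases before the gene's start, 5′ to 3′ on the gene's strand, from RefSeq for GRCh38.p14; capitals mark the GC box GGGCGG or its reverse complement CCGCCC, searched on both strands.
ACTG1: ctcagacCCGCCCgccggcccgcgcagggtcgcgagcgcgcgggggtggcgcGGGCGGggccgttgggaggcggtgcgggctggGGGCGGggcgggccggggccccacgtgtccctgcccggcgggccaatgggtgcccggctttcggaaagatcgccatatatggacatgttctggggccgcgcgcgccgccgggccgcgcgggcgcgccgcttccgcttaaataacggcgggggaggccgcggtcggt
STAT5B: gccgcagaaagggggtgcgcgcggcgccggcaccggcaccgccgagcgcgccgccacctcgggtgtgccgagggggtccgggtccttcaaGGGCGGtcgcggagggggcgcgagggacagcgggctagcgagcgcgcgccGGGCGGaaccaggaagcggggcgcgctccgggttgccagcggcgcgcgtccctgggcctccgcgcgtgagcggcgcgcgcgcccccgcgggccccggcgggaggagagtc
KIF2B: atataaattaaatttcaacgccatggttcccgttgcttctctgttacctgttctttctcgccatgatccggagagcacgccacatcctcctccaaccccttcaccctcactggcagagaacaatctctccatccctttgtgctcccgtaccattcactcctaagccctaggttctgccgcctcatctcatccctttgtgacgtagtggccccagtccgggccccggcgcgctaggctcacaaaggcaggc
KCNJ16: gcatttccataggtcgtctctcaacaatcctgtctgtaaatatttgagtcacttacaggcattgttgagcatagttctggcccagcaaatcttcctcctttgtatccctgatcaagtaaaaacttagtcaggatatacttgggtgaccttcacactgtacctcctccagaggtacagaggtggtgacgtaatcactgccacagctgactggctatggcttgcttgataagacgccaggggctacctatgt
The ACTG1 and STAT5B promoters were 78.8% and 82.0% G or C, and held 3 and 2 GC boxes, marked and counted without overlaps. In ACTG1 a further match overlaps the last box marked. The KIF2B and KCNJ16 promoters were 55.2% and 46.4% G or C and held none. Over all 27305 promoters of the table the median was 58%, and 42.3% held a GC box. The bases of the γH2AX regions themselves were not analysed here.

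Depth and calling thresholds differed between groups. The KO PMA libraries had 18.3 and 16 M tags (M, 1000000), the KO mock libraries 17.8 and 15.6 M, the WT PMA libraries 27.2 and 17 M and the WT mock libraries 23.9 and 23.4 M. The tag count that a 500-bp window had to reach, per 10 M tags, was 7.12 and 7.50 in KO PMA, 7.30 and 7.69 in KO mock, 5.89 and 7.07 in WT PMA and 6.26 and 6.42 in WT mock libraries, so the WT libraries could call weaker regions. Regions of the interior had 4.62 and 4.54 input tags per kb and 10 M tags in KO PMA, 4.18 and 4.32 in KO mock, 2.73 and 3.28 in WT PMA and 2.61 and 2.96 in WT mock libraries. The KO regions thus lay where the shared WT input was also higher, and the part of this in the results was not tested. The region lists hold no copy number, and a gain or loss of 17p or 17q in either line would change covered length.

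The interior carried more γH2AX in KO than in WT cells and more after PMA than after mock treatment. Regions numbered 3107 and 2766 in KO PMA, 1317 and 1337 in KO mock, 1170 and 1079 in WT PMA and 324 and 320 in WT mock libraries. Their summed length was 3.21 and 2.51 Mb in KO PMA, 0.901 and 0.927 Mb in KO mock, 0.732 and 0.652 Mb in WT PMA and 0.174 and 0.173 Mb in WT mock libraries. No library of one group overlapped another group's. The interior took 7.55% and 7.28% of all covered length on chromosomes 1 to 22 and X in KO PMA, 5.23% and 5.36% in KO mock, 2.34% and 2.63% in WT PMA and 1.81% and 2.12% in WT mock libraries. Its share therefore also ordered KO above WT, while within WT cells the PMA and mock shares were close (2.48% ± 0.207 after PMA and 1.96% ± 0.215 after mock; SD, n = 2 each).

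Both arms followed this order, with 17p the sparser arm. On 17p the libraries held 18.4 and 12.9 covered kb per Mb in KO PMA, 4.0 and 4.59 in KO mock, 2.34 and 2.79 in WT PMA and 0.387 and 0.132 in WT mock. On 17q they held 54.5 and 43.2 kb per Mb in KO PMA, 15.7 and 16 in KO mock, 13.1 and 11.4 in WT PMA and 3.18 and 3.25 in WT mock. The WT mock libraries had 14 and 5 regions on the whole of 17p. The 17p regions also had fewer input tags per kb than the 17q regions in each library, for example 3.25 against 4.79 in KO PMA replicate 1 and 2.16 against 2.63 in WT mock replicate 1.

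**Figure D1:**
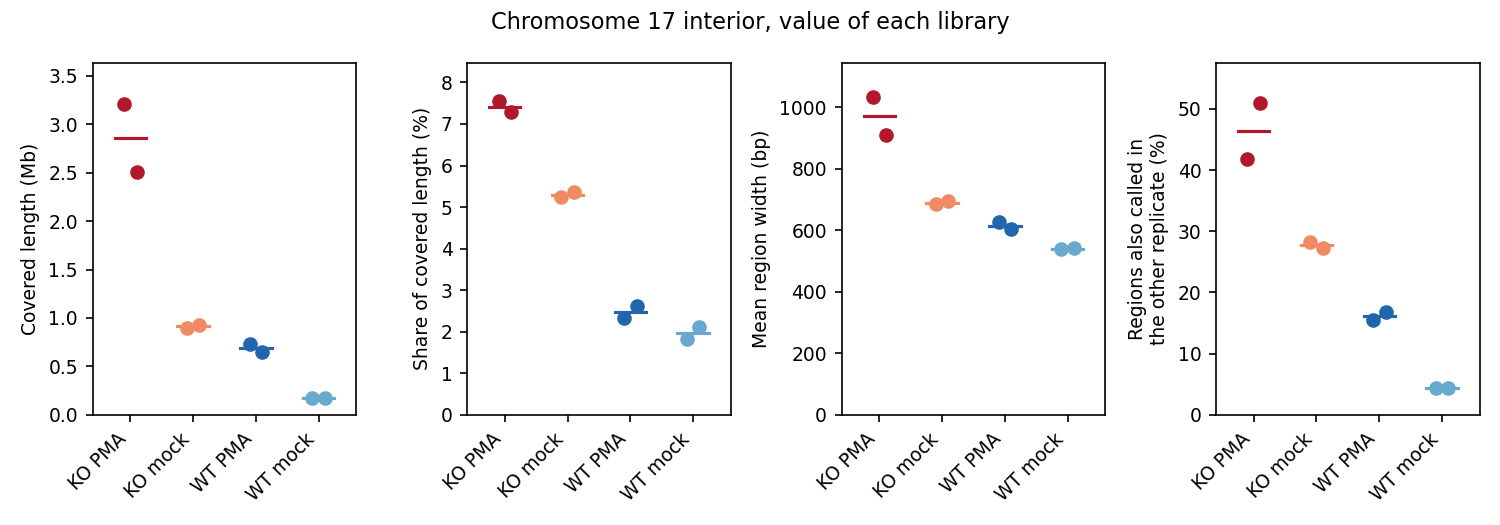
Covered length, share of covered length on chromosomes 1 to 22 and X, mean region width, and share of regions also called in the other replicate, for the chromosome 17 interior; points are the 2 libraries of a group and bars their mean. All 4 measures are highest in KO PMA and lowest in WT mock libraries, and covered length is 3.21 and 2.51 Mb in KO PMA against 0.174 and 0.173 Mb in WT mock.

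γH2AX was unevenly spread along the chromosome. Of the 72 windows, 8 held no region in any library, 1 held a region in 1 library, and 63 could be tested. The empty windows were 9 to 11 Mb and 13 to 15 Mb on 17p, 50 to 52 Mb and 68 to 70 Mb on 17q; the 10 to 11 Mb window holds the skeletal myosin heavy chain genes such as MYH2, the 51 to 52 Mb window KIF2B, and the 68 to 69 Mb window KCNJ2 and KCNJ16. The 5 fullest windows of each library took 42.6% and 43.2% of covered length in KO PMA, 39.4% and 40.3% in KO mock, 28.2% and 28.4% in WT PMA and 23.5% and 36.4% in WT mock libraries. The fullest window, 79 to 80 Mb, had 491 and 395 kb covered in KO PMA, 164 and 189 kb in KO mock, 20.7 and 28.3 kb in WT PMA, with 9.05 and 21.4 kb in WT mock libraries. Among 2156 windows of the genome it ranked 2 and 3 in KO PMA, 5 and 3 in KO mock, 505 and 253 in WT PMA and 234 and 58 in WT mock libraries.

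**Figure D2:**
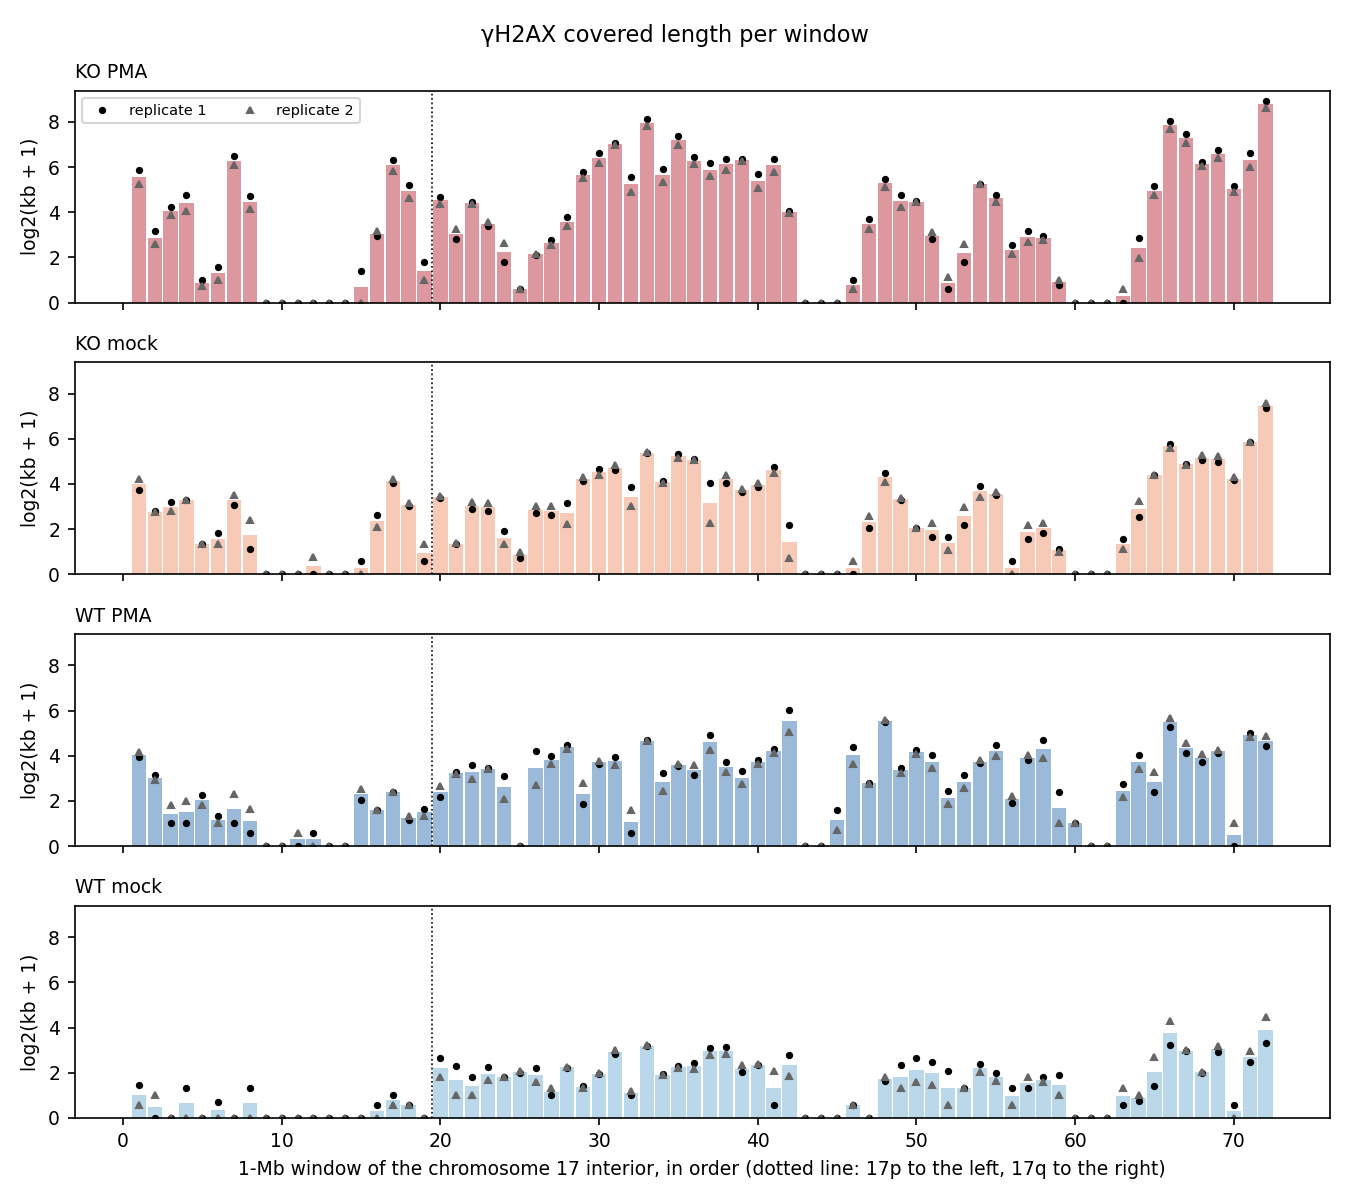
Covered length per 1-Mb window, as log2(kb + 1), in the 4 groups; bars are the mean of 2 libraries, circles and triangles replicates 1 and 2, and the dotted line separates the 19 windows of 17p from the 53 of 17q. The 2 high stretches on 17q stand out in KO PMA and KO mock libraries, with the last window at 491 and 395 kb in KO PMA, and 8 windows are empty in all libraries.

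Without PMA, KO cells had more covered length than WT cells over most of the interior. Windows were compared with limma on log2(covered bp + 1000), fitted over 1935 windows of chromosomes 1 to 22 and X with Benjamini-Hochberg adjustment over all of them; a log2 difference on this scale understates the change of sparsely covered windows. Covered length was higher in KO mock than in WT mock cells in 39 of 63 tested windows (61.9%) and lower in 1 (1.59%). Over all 1935 windows 29.3% were higher and 6.25% lower. The median log2 difference was 1.59 in the interior and 0.34 over all windows; leaving out windows in which one group had no region, it was 1.65 over 54 interior windows and 0.50 over 1380 windows. With the libraries centred on their median window, 35 interior windows were higher and 2 lower, all 35 among the 39. Among regions at least 6-fold over input, 6 windows were higher, all among the 39, and 0 lower by limma, where 3 were lower at an unadjusted p under 0.05; those 6 windows are 9.52% of the interior, near the 7.71% of all windows at that setting.

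The largest increases stood in the 77 to 78, 79 to 80, 17 to 18, 7 to 8 and 48 to 49 Mb windows. The 77 to 78 Mb window had 17.1 and 18.6 kb in KO mock cells against 0.50 and 0 kb in WT mock cells (log2 difference 3.94 ± 0.41 SE, limma adjusted p = 0.0013). The 17 to 18 Mb window, with FLCN, RAI1 and SREBF1, had 15.2 and 17.7 kb in KO mock against 1.0 and 0.50 kb in WT mock cells (3.33 ± 0.26, limma adjusted p = 0.00078). The 48 to 49 Mb window, with COL1A1 and the nuclease gene EME1, had 25.9 and 21.5 kb in KO mock against 0.50 and 3.27 kb in WT mock cells (3.28 ± 0.50, limma adjusted p = 0.0043). In these windows both KO libraries lay above both WT libraries. The 7 to 8 Mb window, which holds POLR2A and the macrophage marker gene CD68, had 7.52 and 10.4 kb in KO mock cells and no region in WT mock cells, so no fold is given.

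The window with lower coverage was 32 to 33 Mb, where the chemokine gene CCL2 lies: it had 0.673 and 1.0 kb in KO mock against 3.0 and 3.15 kb in WT mock cells (log2 difference −1.16 ± 0.20, limma adjusted p = 0.0063). That call was lost at 6-fold over input and where 1 tag threshold was used for all libraries. Of the smallest differences, the 52 to 53 and 67 to 68 Mb windows had no region in either group. The 58 to 59 Mb window, with PPM1D, which encodes a phosphatase that removes the phosphate from γH2AX, had 2.16 and 3.87 kb in KO mock and 4.5 and 1.77 kb in WT mock cells. The 59 to 60 Mb window, with BRIP1, had 2.16 and 1.14 kb in KO mock and 3.27 and 0.50 kb in WT mock cells, and the 57 to 58 Mb window, with CLTC and MIR21, 3.16 and 3.14 kb in KO mock and 5.31 and 2.0 kb in WT mock cells. In these 3 windows the groups overlapped.

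After PMA the same comparison gave both gains and losses. Covered length was higher in KO PMA cells than in WT PMA cells in 33 of 63 windows (52.4%) and lower in 8 (12.7%), while over all 1935 windows 16.2% were higher and 38.8% lower. The median log2 difference was 1.15 in the interior and −0.70 over all windows, and 1.39 and −0.74 without windows in which one group had no region. At 6-fold over input 17 were higher, all among the 33, and 6 lower, 4 of them among the 8. With the libraries centred on their median window, 43 were higher, among them all 33, and 1 lower; the background turned with it, to 40.7% of all windows higher and 12.8% lower and a median log2 difference of 0.54. With 1 tag threshold for all libraries 34 were higher, 32 of them among the 33, and 1 lower, against 21.6% higher and 19.9% lower of all windows. The balance of gains and losses over all windows thus depends on the scaling. No gain turned into a loss under these settings, and the losses that kept their call numbered 4, 1 and 1. Without KO PMA replicate 2 the lower windows numbered 3, without WT PMA replicate 1 they numbered 4, and without KO PMA replicate 1 they numbered 6.

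The 7 to 8 Mb window led, with 87.7 and 66.5 kb in KO PMA against 1.0 and 4.0 kb in WT PMA cells (log2 difference 4.61 ± 0.47, limma adjusted p = 0.0011). The 77 to 78 Mb window had 34.9 and 29 kb in KO PMA against 0 and 1.0 kb in WT PMA cells (4.54 ± 0.41, limma adjusted p = 0.0008). The 39 to 40 Mb window, where type I keratin genes such as KRT14 lie, had 46 and 29 kb in KO PMA against 0.50 and 2.0 kb in WT PMA cells (4.15 ± 0.48, limma adjusted p = 0.0017). In each of these windows both KO PMA libraries lay above both WT PMA libraries. The 79 to 80 Mb window, with ACTG1, P4HB and FAAP100, had a log2 difference of 4.13 ± 0.39 (limma adjusted p = 0.00087), and the 17 to 18 Mb window, with 78.6 and 56.5 kb in KO PMA against 4.18 and 4.30 kb in WT PMA cells, one of 3.69 ± 0.26 (limma adjusted p = 0.00055).

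Lower coverage in KO PMA cells was found in 8 windows, 2 on 17p and 6 on 17q. The 53 to 54 Mb window, with the transcription factor gene HLF and STXBP4, had 1.0 and 0.50 kb in KO PMA against 19.98 and 11.4 kb in WT PMA cells (log2 difference −3.22 ± 0.39, limma adjusted p = 0.002). The 70 to 71 Mb window, with SOX9, a regulator of cartilage and testis development, had 0 and 0.50 kb in KO PMA against 5.63 and 3.5 kb in WT PMA cells (−2.16 ± 0.42, limma adjusted p = 0.0082). The 65 to 66 Mb window, with HELZ, PITPNC1 and BPTF, had 6.66 and 5.90 kb in KO PMA against 25 and 13.9 kb in WT PMA cells (−1.44 ± 0.35, limma adjusted p = 0.017). In all 3 the KO libraries stood under the WT libraries without overlap. The 15 to 16 Mb window, with PMP22, had 1.63 and 0 kb in KO PMA against 3.14 and 4.75 kb in WT PMA cells (−1.59 ± 0.49, limma adjusted p = 0.037), and the 5 to 6 Mb window 1.0 and 0.666 kb in KO PMA against 3.86 and 2.5 kb in WT PMA cells (−1.18 ± 0.26, limma adjusted p = 0.013). With 1 tag threshold the call of the 65 to 66 Mb window remained and the other 7 were lost. With the libraries centred, or with the threshold set on the best window of a region, that of the 53 to 54 Mb window remained and the other 7 were lost.

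The smallest differences after PMA were in the 30 to 31, 19 to 20, 6 to 7, 2 to 3 and 28 to 29 Mb windows. The 30 to 31 Mb window, with the proteasome gene PSMD11, had 9.58 and 10.7 kb in KO PMA and 9.83 and 9.52 kb in WT PMA cells. The 28 to 29 Mb window had 6.01 and 8.50 kb in KO PMA and 8.63 and 8.27 kb in WT PMA cells. The log2 differences of the 5 windows lay between −0.21 and 0.13, with standard errors of 0.28 to 0.47. With the libraries centred, the 19 to 20, 6 to 7 and 30 to 31 Mb windows were called higher, so their small differences hold on the scale of the deposited calls.

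**Figure D3:**
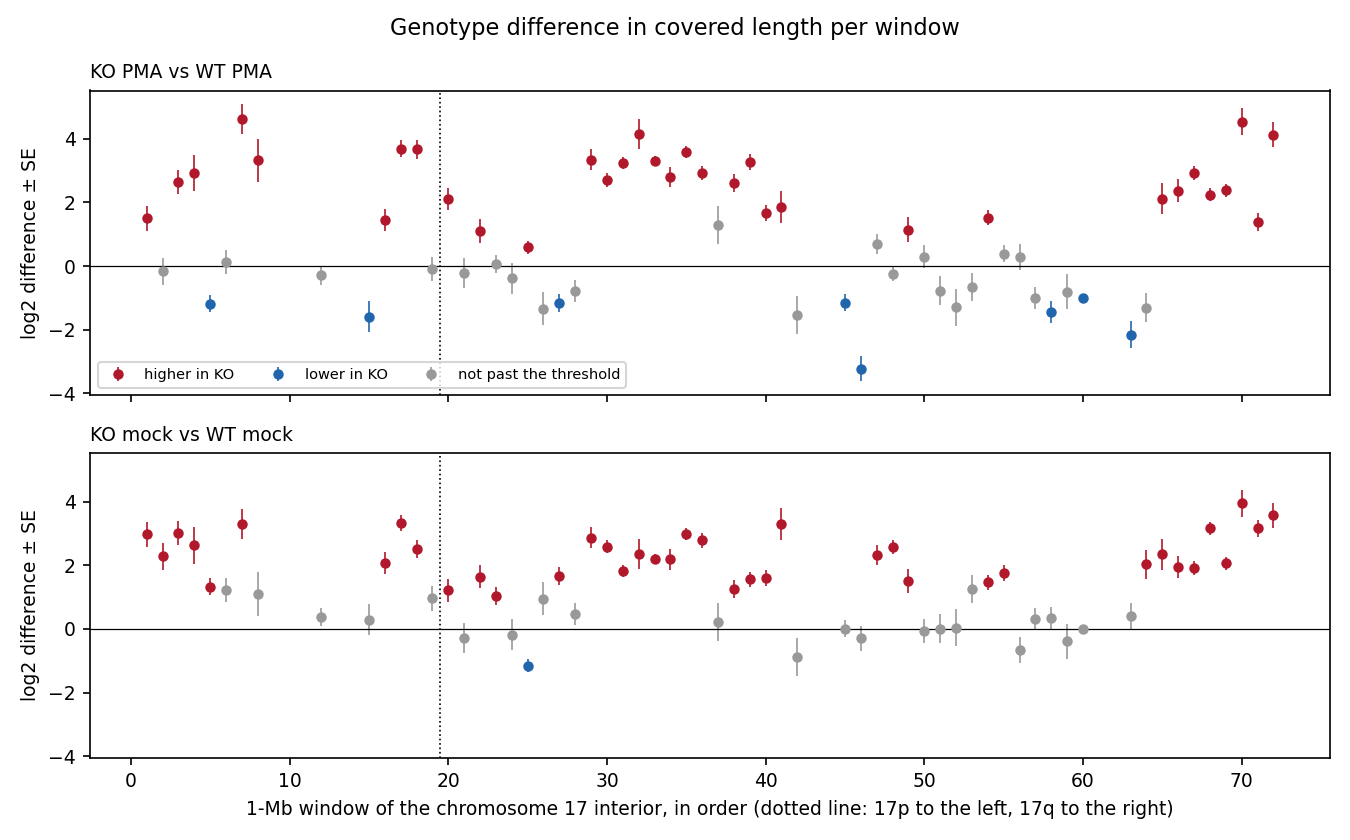
Log2 difference in covered length per window, KO PMA against WT PMA above and KO mock against WT mock below, with the limma standard error, for 63 windows in chromosome order; red points are higher in KO, blue lower, at an adjusted p under 0.05. After PMA 33 windows are higher and 8 lower, and without PMA 39 are higher and 1 lower.

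Taking both treatments, 31 windows were higher in KO cells in each, and 16 were called in neither. A further 6 were higher in KO without PMA and not called after it, and 1 was higher after PMA and not called without it. Another 6 were lower in KO after PMA and not called without it. Of the windows called in opposite directions, the 5 to 6 Mb and 34 to 35 Mb windows were higher in KO mock and lower in KO PMA cells, and the 32 to 33 Mb window was lower in KO mock and higher in KO PMA cells. The last of these calls after PMA rests on 0.50 kb, or 1 region, in each KO PMA library and no region in WT PMA cells. The 34 to 35 Mb window, with the chemokine gene CCL5, had 5.81 and 4.78 kb in KO PMA against 14.8 and 11.3 kb in WT PMA cells, and 5.19 and 7.12 kb in KO mock against 1.0 and 1.5 kb in WT mock cells. The difference between the genotype comparisons, tested as limma's interaction term, was past the threshold in 17 of 63 windows, positive in 5 (7.94%) and negative in 12 (19%), against 2.07% and 27.8% of all windows. With the libraries centred it was positive in 27 and negative in 0 by limma (2 at an unadjusted p under 0.05), against 26% and 2.64% of all windows, so its balance depends on the scaling. Between treatments the KO libraries of the 34 to 35 Mb window overlapped, and both WT PMA libraries lay above both WT mock libraries.

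Neighbouring windows called higher in KO cells formed stretches. Without PMA there were 8 such stretches of at least 2 windows, at 1 to 6, 16 to 19, 29 to 31, 36 to 44, 45 to 49, 54 to 57, 61 to 63 and 71 to 80 Mb. After PMA there were 6, at 3 to 5, 7 to 9, 16 to 19, 36 to 44, 45 to 49 and 72 to 80 Mb, and 1 stretch of 2 windows with lower coverage, at 52 to 54 Mb. The single window between 44 and 45 Mb, which divides the long 17q stretch, was called in neither comparison: it had 70.5 and 47.8 kb in KO PMA, 15.5 and 3.77 kb in KO mock, 29.3 and 18.3 kb in WT PMA, with 7.51 and 5.96 kb in WT mock libraries.

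Seen as longer blocks, whose bounds were drawn after the window values were known, 2 blocks of 17q together held 79.6% of the covered length in KO PMA, 76.6% in KO mock, 44.9% in WT PMA and 62.9% in WT mock cells. The block of 13 windows from 36 to 49 Mb had 1283 and 998 kb in KO PMA, 290.2 and 270.3 kb in KO mock, 163 and 143 kb in WT PMA, with 53.6 and 54.4 kb in WT mock libraries. It runs from MRPL45 to EME1 and holds ERBB2, RARA, TOP2A, BRCA1, the STAT3 and STAT5 genes, ITGA2B, ITGB3 and the HOXB cluster; RefSeq lists 315 protein-coding genes between its end genes, or 24.2 per window. In each genotype comparison 12 of its 13 windows were higher in KO. The block of 8 windows from 72 to 80 Mb had 1275 and 1000.1 kb in KO PMA, 404 and 436 kb in KO mock, 139 and 173 kb in WT PMA, with 40.5 and 70.03 kb in WT mock libraries. It runs from RPL38 to ARHGDIA with 154 protein-coding genes, or 19.2 per window, and all 8 windows were higher in KO in each comparison. Of the interior's covered length, the 36 to 49 Mb block held 39.8% in KO PMA, 30.7% in KO mock, 22.1% in WT PMA and 31.1% in WT mock cells. The 72 to 80 Mb block held 39.8% in KO PMA, 45.9% in KO mock, 22.8% in WT PMA and 31.8% in WT mock cells.

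On 17p the outer 8 windows, 1 to 9 Mb, had 225 and 156 kb in KO PMA, 47.6 and 56.1 kb in KO mock, 31.1 and 38.5 kb in WT PMA, with 5.35 and 1.5 kb in WT mock libraries. The 2 windows from 17 to 19 Mb, from FLCN to TOP3A, had 115 and 80.2 kb in KO PMA, 22.4 and 25.5 kb in KO mock, 5.43 and 5.80 kb in WT PMA, with 1.5 and 1.0 kb in WT mock libraries. Both blocks thus ordered the groups as the whole interior does. Of the windows between them, 7 ran from 9 to 16 Mb, from STX8 to PMP22, with 31 protein-coding genes or 4.43 per window. These 7 had 1.63 and 0 kb in KO PMA, 0.50 and 0.678 kb in KO mock, 3.64 and 5.25 kb in WT PMA and no region in WT mock libraries. None of these 7 was higher in KO in either comparison. The 16 to 17 Mb window, with UBB, was higher in KO in both (log2 difference 2.07 without PMA and 1.46 after PMA).

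Long stretches of 17q with few or no windows called higher in KO cells lay between the 2 high blocks. The 5 windows from 49 to 54 Mb, from SPAG9 to HLF with 12 protein-coding genes or 2.40 per window, had 16.5 and 15.1 kb in KO PMA, 3.5 and 1.16 kb in KO mock, 86.0 and 44.3 kb in WT PMA, with 6.49 and 3.13 kb in WT mock libraries. No window of this block was higher in KO in either comparison, and 2 were lower after PMA. The 9 windows from 63 to 72 Mb, from PRKCA to SDK2 with 34 protein-coding genes or 3.78 per window, had 26.4 and 19.1 kb in KO PMA, 12.9 and 18 kb in KO mock, 67 and 47.9 kb in WT PMA, with 9.43 and 8.50 kb in WT mock libraries. Of these, 1 was higher without PMA, 3 were lower after PMA and none was higher after PMA. Summed over these windows, both KO mock libraries still lay above both WT mock libraries. In both blocks each WT PMA library stood above each library of the other groups. The 4 windows from 57 to 61 Mb, with CLTC, PPM1D, BRIP1 and TLK2, were called in neither genotype comparison, at 30.3 and 34.7 kb in KO PMA, 10.98 and 15.01 kb in KO mock, 45.5 and 33.6 kb in WT PMA, with 14.6 and 5.77 kb in WT mock libraries, and KO and WT libraries overlapped in each treatment. Before the first high block, the 28 to 29, 31 to 32, 33 to 34 and 35 to 36 Mb windows were also called in neither.

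Promoter composition differed between blocks, though not in one order with coverage. The median G and C content of the promoters was 58.8% from MRPL45 to EME1, 66.8% from RPL38 to ARHGDIA, 63.8% from PRKCA to SDK2, 59.2% from SPAG9 to HLF and 58% from STX8 to PMP22. The PRKCA to SDK2 block, which did not gain after PMA, thus had a higher median than the MRPL45 to EME1 block, which did. A GC box was held by 48.6% of the promoters from MRPL45 to EME1, 68.6% from RPL38 to ARHGDIA, 62.5% from PRKCA to SDK2, 50% from SPAG9 to HLF and 42.9% from STX8 to PMP22. The contrast between the 4 promoters printed is therefore not one between the blocks they lie in.

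**Figure D4:**
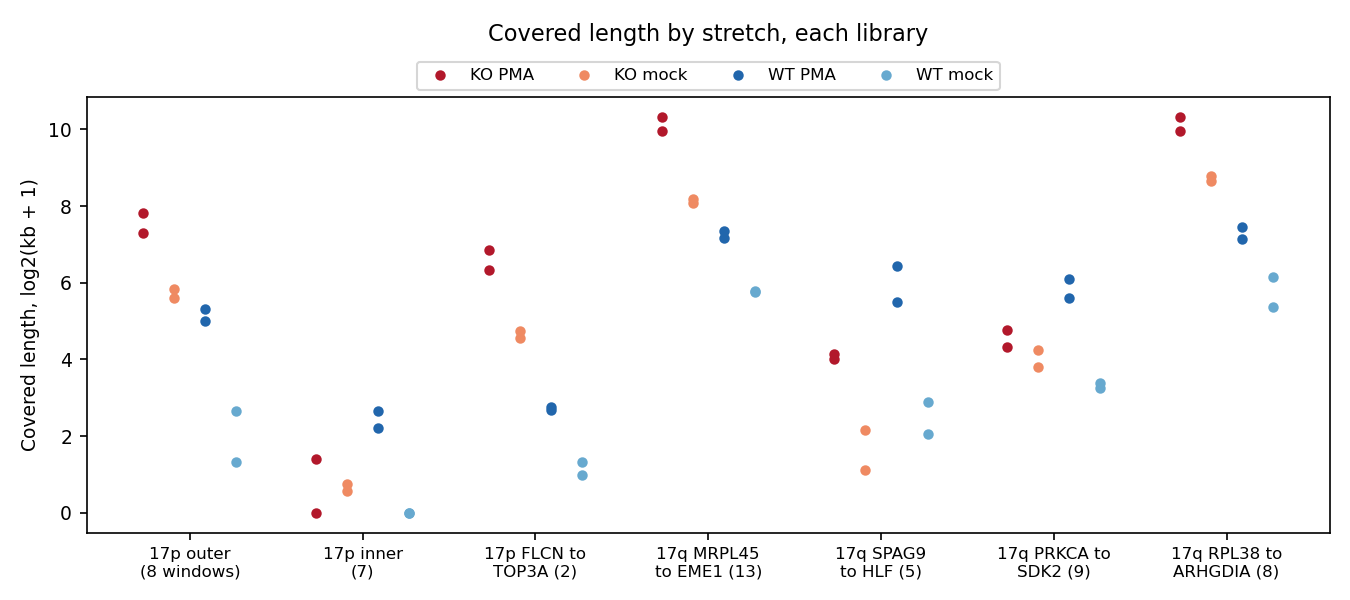
Covered length of 7 blocks of neighbouring windows, as log2(kb + 1), in each of the 8 libraries, with the 4 groups from left to right as KO PMA, KO mock, WT PMA and WT mock. KO PMA libraries are highest in 4 blocks, and WT PMA libraries are highest in the other 3, such as SPAG9 to HLF with 86.0 and 44.3 kb against 16.5 and 15.1 kb in KO PMA.

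PMA raised coverage in WT cells over most of the interior, as it did elsewhere. Covered length was higher in WT PMA than in WT mock cells in 47 of 63 windows (74.6%) and lower in 1 (1.59%), against 65.3% higher and 1.86% lower of all windows. The median log2 difference was 1.49 in the interior and 1.51 over all windows, and 1.5 and 1.74 without windows in which one group had no region. The rise was therefore near the background. Centring reversed the balance, with 4 windows higher (6.35%) and 15 lower (23.8%), against 8.99% and 30.7% of all windows. An equal number of regions per library gave 4 higher (6.78%) and 5 lower (8.47%), against 12.3% and 5.66% of all windows. The largest increases were in the 55 to 56, 53 to 54 and 49 to 50 Mb windows. The 55 to 56 Mb window, with MSI2, an RNA-binding regulator of blood stem cells, had 43.9 and 47 kb in WT PMA against 2.15 and 2.5 kb in WT mock cells (log2 difference 3.81 ± 0.22, limma adjusted p = 0.00086). The 53 to 54 Mb window had 19.98 and 11.4 kb in WT PMA against 0.50 and 0.50 kb in WT mock cells (3.43 ± 0.39, limma adjusted p = 0.0015), and the 49 to 50 Mb window 64 and 32.2 kb in WT PMA against 5.99 and 2.63 kb in WT mock cells (3.21 ± 0.60, limma adjusted p = 0.0055). All 3 windows stand outside the 2 high blocks of KO cells. The lower window was 32 to 33 Mb, with no region in WT PMA and 3.0 and 3.15 kb in WT mock cells.

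In KO cells PMA raised coverage in 29 of 63 windows (46%) and lowered it in 0 at an adjusted p under 0.05 by limma, against 17.7% and 5.12% of all windows; at an unadjusted p under 0.05 it was lower in 1, and the 1.09 median log2 difference of the interior compares with 0.29 over all windows. Higher windows ran without a gap from 36 to 48 Mb, 12 windows in all. The largest increases were in the 7 to 8, 44 to 45 and 8 to 9 Mb windows. The 7 to 8 Mb window had 87.7 and 66.5 kb in KO PMA against 7.52 and 10.4 kb in KO mock cells (2.98 ± 0.47, limma adjusted p = 0.01), the 44 to 45 Mb window 70.5 and 47.8 kb in KO PMA against 15.5 and 3.77 kb in KO mock cells (2.73 ± 0.60, limma adjusted p = 0.027) and the 8 to 9 Mb window, with RPL26, 25.2 and 16.9 kb in KO PMA against 1.19 and 4.23 kb in KO mock cells (2.67 ± 0.69, limma adjusted p = 0.04). All 3 calls are lost without one or another library. The count fell to 8 without KO PMA replicate 1, to 11 without KO PMA replicate 2 or KO mock replicate 1 and to 10 without KO mock replicate 2. With the covered length of each window as a share of its library 4 windows were higher (6.35%), against 2.38% of all windows. With 1 tag threshold 6 were higher (10%), against 8.32% of all windows. The number of windows called in KO cells therefore depends on these choices.

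Regions were also wider in KO PMA cells. The mean width was 1034 and 908 bp in KO PMA, 684 and 693 bp in KO mock, 626 and 604 bp in WT PMA and 539 and 541 bp in WT mock libraries, where 500 bp is the width of the caller's window and the median of the 6 libraries outside KO PMA. Regions of 1000 bp or more numbered 815 and 641 in KO PMA, 147 and 155 in KO mock, 86 and 64 in WT PMA and 5 and 4 in WT mock libraries. Regions of 5000 bp or more numbered 58 and 22 in KO PMA and 1 and 1 in KO mock libraries, with none in either WT group. Over the rest of chromosomes 1 to 22 and X the mean width was 991 and 914 bp in KO PMA, 706 and 723 bp in KO mock, 742 and 689 bp in WT PMA and 687 and 703 bp in WT mock libraries. The interior's mean width was below that of the rest in 7 of the 8 libraries, KO PMA replicate 1 being the exception, and the gap was widest in the WT mock libraries.

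Window by window, width was compared with limma on log2 mean width in the 32 interior windows with at least 3 regions in every library, of 549 such windows. Regions were wider in KO PMA than in WT PMA cells in 19 of 32 windows (59.4%) and narrower in 1, the 64 to 65 Mb window with PRKCA, against 29.9% wider and 19.7% narrower of all windows. Regions were wider in KO mock than in WT mock cells in 7 of 32 (21.9%), near the 22.4% of all windows, and narrower in 0, against 2.73% of all; at an unadjusted p under 0.05 0 were narrower. The 79 to 80 Mb window changed most after PMA, with a mean width of 2100 and 1555 bp in KO PMA against 591 and 615 bp in WT PMA libraries (log2 difference 1.58 ± 0.14). The 36 to 37 Mb window, with MRPL45 and PSMB3, had 1294 and 1024 bp in KO PMA against 527 and 530 bp in WT PMA libraries (1.12 ± 0.13). The 40 to 41 Mb window, with STAT3, STAT5A and STAT5B, had 1185 and 941 bp in KO PMA against 602 and 553 bp in WT PMA libraries (0.87 ± 0.13). In all 3 windows the KO PMA libraries lay above the others. PMA widened regions in KO cells in 14 of 32 windows (43.8%, against 28.4% of all) and narrowed them in 1 (3.12%, against 0.546%). In WT cells it widened them in 7 of 32 (21.9%, against 40.8% of all) and narrowed them in 0 by limma (1.46% of all), and in 0 at an unadjusted p under 0.05. The count of wider windows in KO mock cells was 2 without either WT mock library and 4 and 3 without KO mock replicates 1 and 2. That in WT PMA cells was 1 without WT PMA replicate 1 or WT mock replicate 1, and 2 without WT mock replicate 2.

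Replicates shared more regions where coverage was high. In KO PMA cells 41.9% of the regions of replicate 1 and 50.9% of those of replicate 2 overlapped a region of the other by at least 1 bp. The shares were 28.2% and 27.3% in KO mock, 15.6% and 16.9% in WT PMA and 4.32% and 4.38% in WT mock cells, where 14 regions were shared. Outside the interior they were 38.5% and 46.1% in KO PMA, 29.4% and 29.9% in KO mock, 26.8% and 31.9% in WT PMA and 17.8% and 21.5% in WT mock cells. The WT shares of the interior lay below those outside it, a difference that was not tested. Shared regions were wider than unshared ones, with 1362 against 643 bp in KO PMA, 919 against 600.3 bp in KO mock, 757 against 588 bp in WT PMA and 600.04 against 537 bp in WT mock cells.

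The overlap of the replicates in bp, as a share of all bp covered in either (the Jaccard index), was 0.263 in KO PMA, 0.127 in KO mock, 0.0601 in WT PMA and 0.0153 in WT mock cells. Per window its median was 0.130 in KO PMA, 0.0592 in KO mock, 0.0262 in WT PMA and 0 in WT mock cells. The highest value in KO cells was that of the 79 to 80 Mb window, 0.486 in KO PMA and 0.298 in KO mock. In WT PMA cells the 49 to 50 Mb window was highest at 0.181, and in WT mock cells the 43 to 44 Mb window at 0.122. By block, the index from 72 to 80 Mb was 0.342 in KO PMA, 0.188 in KO mock, 0.0627 in WT PMA and 0.0159 in WT mock cells. From 49 to 54 Mb it came to 0.0172 in KO PMA against 0.161 in WT PMA cells, with no bp shared in KO mock or WT mock cells. On 17p it was 0.176 in KO PMA, 0.0349 in KO mock and 0.0184 in WT PMA cells, and no region was shared between the WT mock replicates.

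**Figure D5:**
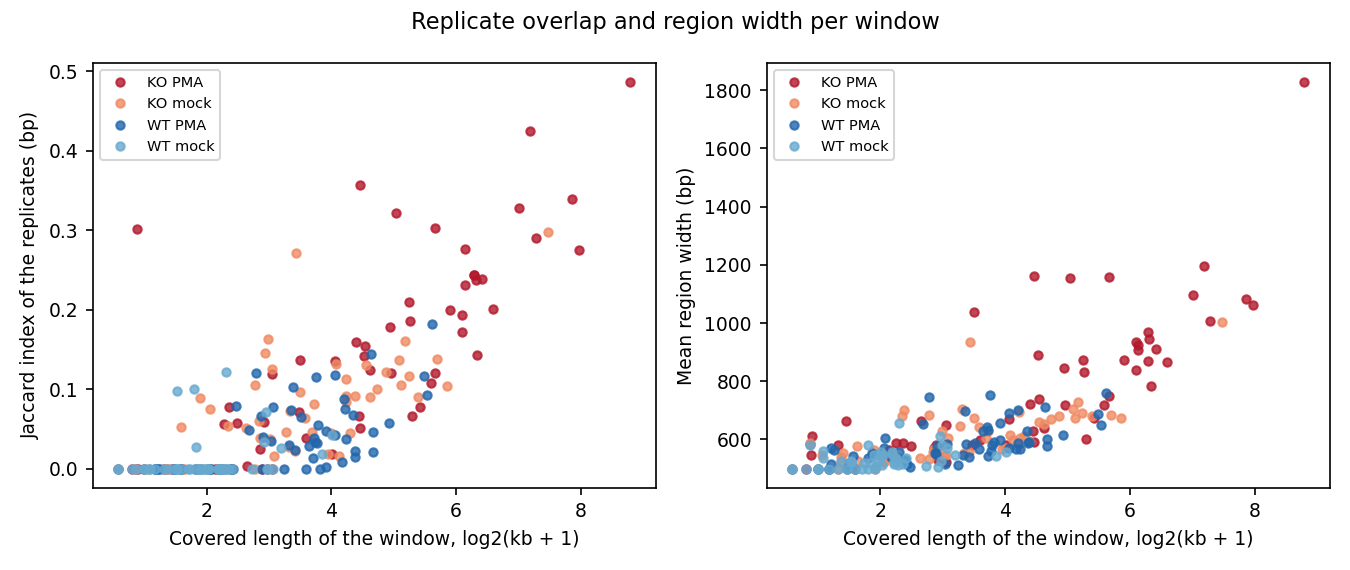
For each window and group, the Jaccard index of the replicates in bp (left) and the mean region width in bp (right), against the mean covered length of the window as log2(kb + 1). Windows with more covered length have higher values of both, and the 79 to 80 Mb window in KO PMA cells lies highest in each panel, with an index of 0.486.

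Most regions found in both KO replicates were in neither WT library of the same treatment. After PMA this held for 993 of 1301 regions (76.3%), and without PMA for 321 of 372 (86.3%). Over the rest of chromosomes 1 to 22 and X the shares were 64.1% after PMA and 78.7% without it. In the other direction, 86 of the 182 regions shared by the WT PMA replicates (47.3%) were in neither KO PMA library, and 6 of the 14 shared by the WT mock replicates (42.9%) in neither KO mock library, against 59.7% and 64.4% over the rest. These differences from the rest were not tested. WT regions unmatched in KO had a median fold over input of 5.47 after PMA and 6.21 without it, and KO regions unmatched in WT 3.90 after PMA and 4.17 without it. These folds are the authors'. Over the rest unmatched regions had 4.62 and 4.83 in WT, and 3.82 and 3.91 in KO cells. All interior regions of the replicate 1 libraries had medians of 5.47 in WT PMA, 5.82 in WT mock, 4.07 in KO PMA and 4.17 in KO mock. The gap was thus not particular to unmatched regions.

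The longest regions of KO PMA cells were chr17:73815113-73832825 in replicate 1, at 17712 bp and 2.95-fold over input, and chr17:79862086-79874430 in replicate 2, at 12344 bp and 3.40-fold. The longest of KO mock cells were chr17:79939916-79945816 in replicate 1, at 5900 bp, and chr17:79228728-79233899 in replicate 2, at 5171 bp. In WT PMA cells the longest were chr17:56586696-56589387, at 2691 bp and 6.09-fold, and chr17:71198230-71200680, at 2450 bp and 3.44-fold. In WT mock cells they were chr17:43652413-43654163, at 1750 bp and 2.14-fold, and chr17:73893509-73894960, at 1451 bp and 3.68-fold. The longest region of each KO library thus lay toward the end of 17q, at modest folds. Long regions of KO PMA cells also lay elsewhere, reaching 9915 and 7042 bp from 36 to 49 Mb and 6816 and 4150 bp on 17p.

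The regions with the highest fold in both replicates were short. In KO PMA cells chr17:8365184-8365811 was 34.6-fold over input in replicate 1 and its counterpart 44.2-fold in replicate 2, and chr17:62099110-62099610 was 30.6-fold and 30.2-fold; neither overlapped a region in another group. In KO mock cells chr17:78306206-78306706 was 35.5-fold and 17.9-fold, and chr17:38615307-38615807 14.6-fold and 17.9-fold. In WT PMA cells chr17:38329131-38329631 was 23.2-fold and 18.6-fold, and chr17:75345511-75346011 17.1-fold and 16.4-fold, with 1 overlapping region in KO PMA cells. In WT mock cells chr17:48562290-48562790 was 12.4-fold and 15.1-fold with 2 overlapping regions in KO PMA cells, and chr17:40529254-40529754 was 6.99-fold and 6.76-fold. Folds this high rest on few input tags: these regions held 6.25 to 11.9 ChIP tags per 10 M tags.

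Genes were read by the window they lie in, which says nothing of where in the window the regions were, and genes of 1 window share its value. Of 20 DNA damage response genes, 13 lay in windows higher in KO PMA cells than in WT PMA cells and 15 in windows higher in KO mock than in WT mock cells, with none in a lower window. These are 65% and 75% of the genes, against 52.4% and 61.9% of the interior windows tested. A share of genes is not on the footing of a share of windows, since a gene-dense window counts more often. The share over all interior genes was not computed. FAAP100, BRCA1, RPA1, TOP2A, EME1 and RAD51C were in higher windows in both. BRCA1, which acts in homologous recombination, lies in the 41 to 42 Mb window, with 59.9 and 40.01 kb in KO PMA, 16.3 and 15.6 kb in KO mock, 8.38 and 4.5 kb in WT PMA, with 2.79 and 2.68 kb in WT mock libraries. BRIP1, PPM1D, TLK2, LIG3 and RAD51D were in windows called in neither.

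Of 27 blood lineage genes, 21 lay in windows higher in KO PMA cells than in WT PMA cells, 1 in a lower window (MAP2K6, a kinase of the p38 pathway), and 24 in windows higher in KO mock than in WT mock cells. The MAP2K6 window, 67 to 68 Mb, had 1.0 and 1.0 kb in WT PMA and no region in the other libraries. Its value therefore depends on the pseudocount. The higher shares are 77.8% and 88.9%, to be read against the same 52.4% and 61.9% with the same limit. Many of these genes share a window. ITGA2B and the red cell anion exchanger gene SLC4A1 lie in the 42 to 43 Mb window, with 164 and 126 kb in KO PMA, 39.4 and 34.1 kb in KO mock, 10.8 and 11.2 kb in WT PMA, with 3.84 and 3.65 kb in WT mock libraries. ITGB3 lies in the 45 to 46 Mb window, with 81.3 and 57.5 kb in KO PMA, 15.5 and 20.02 kb in KO mock, 12.3 and 8.62 kb in WT PMA, with 7.71 and 6.08 kb in WT mock libraries. PRKCA, a target of PMA, lies in the 64 to 65 Mb window, with 7.85 and 5.36 kb in KO PMA, 2.0 and 3.5 kb in KO mock, 13.1 and 15.1 kb in WT PMA, with 1.5 and 2.5 kb in WT mock libraries; it was called in neither genotype comparison.

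Of 40 housekeeping genes, 32 lay in windows higher in KO PMA cells than in WT PMA cells and 1 in a lower window, and 33 in windows higher in KO mock than in WT mock cells. The higher shares are 80% and 82.5%, against 52.4% and 61.9% of the interior windows tested. The same limit holds, as these 40 genes lie in 28 windows. Of 14 genes of tissue-restricted clusters, 6 (42.9%) were in higher windows after PMA and 4 (28.6%) in lower ones, 6 (42.9%) in higher and 1 (7.14%) in lower ones without PMA, and 3 in windows with no region. Of the interior windows tested, 12.7% were lower after PMA and 1.59% without it. The 14 genes include the 3 in windows that were not tested, so their shares have another base. The higher ones were KRT10, KRT14, HOXB4, HOXB9, GH1 and CCL2 after PMA, and the lower ones CCL5, SOX9, ABCA5 and ABCA6. The window medians of these lists after PMA were 1.52 for the DNA damage response, 2.64 for blood lineage, 2.24 for housekeeping and 0.58 for tissue-restricted genes on the log2 scale. All these genes lie in the interior, whose own median was 1.15, against −0.70 over all windows. The tissue-restricted median is the value of the CCL2 window, which had no region in WT PMA cells, and so depends on the pseudocount.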

How the data were processed

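γH2AX ChIP-seq was measured in 8 libraries, 2 per group. CASAVA 1.4, BWA, HOMER and hg19 are named in the submitters' processing notes. Each library's regions were called by the authors with HOMER, per the file headers, in 500-bp windows, against 1 input library, with a tag threshold that follows depth. The deposited files give tag counts per region, normalised tag signal per 10 M tags (M, 1000000), a score, the ratio (fold) over input and p-values, all made by the authors. In each file either the ChIP or the input tags are scaled to the other's depth; the deposited fold was the ratio of these tags in all 8 files (median quotient 0.998 to 1.001), so 1 fold limit was used for all. Per the file headers the totals per library were 15.6 to 27.2 M tags; no counting interval applies to a covered length.

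Covered length per 1-Mb window was computed from the deposited region coordinates and tested with limma 3.58.1 in R 4.3.3 (pseudocount 1000 bp, windows covered in at least 2 libraries, 4 groups in 1 fit, adjusted p 0.05). On simulated data it recovered 21 of 100 true log2 changes of 1 and 76 of 100 of 2, with 6 false calls. The changes were placed only in windows with more coverage than the median window, so recovery in sparser windows was not simulated. A window without a call may therefore still differ. No p was computed for sums over the interior. Windows named are the 5 largest increases, up to 5 largest decreases and 5 smallest differences per genotype comparison, and the 3 largest each way per PMA comparison. Stretches are runs of windows called the same way. Regions named are, per group, the 2 called in both replicates with the highest lower fold, and the longest. The gene lists were DNA damage response, blood lineage, housekeeping and tissue-restricted clusters; genes were placed in hg19 windows from general knowledge, and the order of 135 genes was checked against RefSeq, with 0 out of order. The members, lists, blocks and tests were chosen with earlier results of these data known. The planned test over gene bodies was not run, because no hg19 annotation was used here. Some genes of the interior are not reported here.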

Additional observations from a re-analysis of the deposited data

Results flagged for a closer look

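The difference between KO and WT cells changed with treatment in 17 of the 63 tested windows, by limma's interaction term (KO PMA against WT PMA minus KO mock against WT mock, adjusted p under 0.05): 5 were higher and 12 lower, against 2.07% higher and 27.8% lower of all windows. The balance reversed under some settings and not under others. It was 27 higher and 0 lower with the libraries centred by limma (2 lower at an unadjusted p under 0.05). For regions of at least 1000 bp it was 13 and 3, against 10.9% and 29.3% of all windows. With the same number of regions per library it was 8 and 2, against 4.86% and 8.02%. As shares of covered length it stayed at 6 higher and 9 lower, against 3.41% and 19.1%. With 1 tag threshold it was 1 and 5, against 1.14% and 19%. At 6-fold over input it was 0 and 2 by limma (4 higher at an unadjusted p under 0.05). Over all windows centring gave 503 higher and 51 lower, against 40 and 538. The interaction was positive in the 32 to 33 Mb window (log2 1.74), the 38 to 39 Mb window (1.43), the 40 to 41 Mb window (1.11), the 45 to 46 Mb window (1.37) and the 46 to 47 Mb window (1.73). The last 4 belong to the 17q block with TOP2A, STAT3, ITGB3 and the HOXB genes.

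It was negative on 17p in the 2 to 3 Mb window (−2.44) and the 5 to 6 Mb window (−2.5). On 17q it was negative in the 34 to 35 Mb window (−2.82), the 53 to 54 Mb window (−2.93), the 54 to 55 Mb window (−1.63), the 55 to 56 Mb window (−2.81), the 62 to 63 Mb window (−1.36), the 65 to 66 Mb window (−1.78), the 67 to 68 Mb window (−1.0), the 70 to 71 Mb window (−2.55), the 71 to 72 Mb window (−3.33) and the 78 to 79 Mb window (−1.77). In the 71 to 72 Mb window, with SDK2, coverage was 6.34 and 2.88 kb in KO PMA against 15.3 and 9.69 kb in WT PMA cells, and 4.76 and 8.55 kb in KO mock against 0.661 and 1.0 kb in WT mock cells. The values of the 5 to 6, 32 to 33, 54 to 55 and 67 to 68 Mb windows depend on the pseudocount, since a group had no region there.

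Of the 17 windows, 14 kept their sign with the libraries centred and 5 of them their call, while with 1 tag threshold 16 of 16 kept their sign and 5 their call. As shares of covered length 17 of 17 kept their sign and 14 their call. The count of 17 was 11 without KO PMA replicate 1, 6 without KO PMA replicate 2, 7 without KO mock replicate 1, 6 without KO mock replicate 2 and 11 without WT PMA replicate 1.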

How the results depend on the processing

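The mean covered length of the interior differed in the same direction in the 4 comparisons under each setting run, but its size changed. On the log2 scale it was 2.39 for KO mock against WT mock, 2.05 for KO PMA against WT PMA, 1.99 for WT PMA against WT mock and 1.65 for KO PMA against KO mock cells. In that order of comparisons it was 1.39, 0.78, 1.82 and 1.21 at 6-fold over input, 5.36, 3.84, 4.17 and 2.64 for regions of at least 1000 bp, 1.57, 2.79, 0.11 and 1.34 with the same number of regions per library, and 1.43, 1.58, 0.34 and 0.49 as a share of all covered length. With the same number of regions the WT PMA libraries (0.155 and 0.173 Mb) and the WT mock libraries (0.130 and 0.173 Mb) overlapped, so that difference has no held direction. With 1 tag threshold the first 3 were 3.78, 3.10 and 2.28. With that threshold set on the best window of a region, chosen after seeing the data, the 4 were 4.77, 3.54, 2.59 and 1.37. Leaving out 1 library gave 2.37 to 2.41, 1.86 to 2.21, 1.91 to 2.07 and 1.46 to 1.81.

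Counts of changed windows were 40, 41, 48 and 29 in that order of comparisons, and 17 for the interaction. They were 6, 23, 25, 2 and 2 at 6-fold over input. Of all windows at 6-fold, 7.71%, 7.71%, 45.4%, 1.91% and 0.675% were higher, and 2.93%, 31.3%, 1.07%, 0.732% and 9.96% lower. The first and the third of the interior counts were 18 and 16 for regions of at least 1000 bp. With the same number of regions the first was 22, the third, the fourth and the interaction 9, 10 and 10. The third, the fourth and the interaction were 20, 6 and 6 with 1 tag threshold, and 15, 5 and 4 on the best window. Centring gave 19 for the third and 27 for the interaction, shares gave 15 for the third and 4 for the fourth, and a pseudocount of 10000 bp gave 26 for the interaction. Leaving out 1 library gave 30 to 38, 28 to 41, 37 to 44, 8 to 32 and 6 to 17. These ranges, and those for width below, include fits without a library outside the comparison, which do not change its group means. The upper end for KO PMA against KO mock came from leaving out either WT mock library. With the replicate number as a block the counts were 39, 42, 49, 24 and 15. The deviations of same-numbered libraries from their group means had correlations of −0.0776 to 0.0605, and 0.259 between WT PMA and WT mock. The main fit did not pair libraries by number. With 2 libraries per group these values cannot settle whether a number marks a shared batch or culture.

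Windows with changed width numbered 7, 20, 7 and 15. They were 0, 0, 0 and 0 of 6 testable windows at 6-fold by limma (2, 0, 0 and 1 at an unadjusted p under 0.05), 3, 5, 1 and 5 of 5 with 1 tag threshold, 1, 1, 0 and 1 of 1 on the best window (0 for the third at an unadjusted p under 0.05), and 1, 8, 1 and 7 of 9 with the same number of regions; fewer windows could be tested in each. Moving windows by 0.5 Mb gave 4 for WT PMA against WT mock. Leaving out 1 library gave 2 to 8, 14 to 20, 1 to 8 and 10 to 15. Regions of replicate 1 shared by both replicates numbered 80 in KO PMA, 26 in KO mock, 31 in WT PMA and 2 in WT mock at 6-fold, and 279, 128 and 25 in the first 3 with the same number of regions.

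Of 639 repeats over the named windows, 566 kept their call or its absence, 65 lost it, 3 gained one and 5 changed sign. The 5 were those of the 32 to 33 Mb window without PMA (0.50 on the best window), of the 5 to 6 Mb window after PMA (0.29 on the best window, 0.071 centred) and of the 19 to 20 Mb window after PMA (0.91 with 1 threshold, 1.15 centred). The cause was not tested. Windows moved by 0.5 Mb give the named windows no value, width was not repeated for regions of at least 1000 bp, and the gene body test was not run. Depth limits the sparse windows, where 1 region of 500 bp decides a value.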
